A study of Bos taurus with 4 samples.

Results

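The genes described here encode the subunits of the transcription factor NF-kappaB and the proteins that hold it in check. They were chosen by symbol: the subunit genes NFKB1, NFKB2, RELA, REL and RELB, and the inhibitor genes NFKBIA, NFKBIB, NFKBIE, TNFAIP3 and BCL3. Of these 10, 7 had a probe set named here, covered by 12 probe sets, out of 9155 genes named in all. REL, RELB and TNFAIP3 are not analysed here, since the annotation used pairs no probe set with them.

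The cells were gamma delta T cells, lymphocytes that are abundant in the blood of young ruminants. They had been sorted from the blood of calves to a purity above 97%, rested overnight and then treated for 4 h. The groups were APP, an aqueous extract of apple polyphenols at 42.2 µg/ml, and PBS, the buffer alone. Cells of calf 301 and of calf 303 received each treatment, which gave 2 arrays per group. The treatment protocols give the calves' age as 1 to 6 months, while the design text calls them neonatal. They were primary cells in culture, no genotype or sex is stated, and nothing is given here on how the extract was made.

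NF-kappaB factors are dimers of Rel family proteins. In resting lymphocytes they are kept in the cytoplasm by IkappaB proteins, which mask their nuclear localisation signals. Signals from the T cell receptor or cytokine receptors activate the IkappaB kinase, the inhibitor is degraded, and the dimer enters the nucleus, where its targets include genes of its own inhibitors and precursors. That feedback makes the inhibitor transcripts a common readout of the pathway.

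In the values as deposited, all 7 measured genes were higher in APP. Under a scaling to hybridization controls, described below, RELA and BCL3 were not. The largest change was that of NFKBIA, the gene of IkappaB alpha, at 8.20-fold, and the smallest that of BCL3, at 1.46-fold. Both APP arrays lay above both PBS arrays for all 7 genes and for all 12 probe sets, against 36.6% of all genes and 33.7% of all probe sets. With limma and the calf as a block, 7 of 7 passed an adjusted p of 0.05 upward, against 23% of all genes upward and 29.7% downward. A rise of at least 2-fold in both calves was seen in 5 of 7 and a fall of that size in none, against 3.5% and 6.29% of all genes. The median change of the 7 was 1.49 on the log2 scale, against 0.01 over all genes. These genes were chosen for their roles, but with earlier results of the same arrays known.

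Values below are log2 ratios of a probe set to its own median over the 4 arrays. Such ratios keep the differences between arrays and lose the level, so no gene's abundance can be set against another's. Whether a probe set lay near background in PBS is unknown, and a fold change near background is compressed. The arrays' own spike-in controls moved with the treatment: those added at hybridization, bioB, bioC, bioD and cre, were higher in APP by 0.99, 0.88, 0.54 and 0.24. Scaling to the hybridization controls means below scaling to 12 probe sets of bioB, bioC and bioD (6, 4 and 2). They were picked by name, in a way that did not match the spelling BioDn. This scaling moved the median change of all genes from 0.01 to -0.86. With the 4 probe sets of cre added, a set chosen after seeing the data, the median moved to -0.71. Changes are therefore read relative to the other genes of the same array. Where a gene that passed the test as deposited turns under the scaling to bioB, bioC and bioD, its value there or the count of such genes is given, while small positive changes that did not pass mostly lie below 0 there.

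Among the subunits, NFKB2 changed most. It encodes a precursor whose processed form is the DNA-binding partner in the noncanonical branch of the pathway. Its log2 ratio was -1.42 and -1.89 in the PBS arrays of calves 301 and 303, and 0.67 and 0.81 in their APP arrays. The APP arrays were close together, and the PBS array of calf 303 was the lowest of the 4. NFKB2 rose by 2.10 in calf 301 and 2.70 in calf 303 (2.40 ± 0.43, SD, n = 2 calves), or 5.27-fold (adjusted p = 3.89e-05, limma). That gap of 0.60 between the calves was the widest among the 7 genes.

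NFKB1 encodes the other precursor, which yields the DNA-binding subunit of the classical dimer. Its log2 ratio was -0.92 in PBS of calf 301 and -0.91 in PBS of calf 303, and 0.53 and 0.62 in the APP arrays. The calves were nearly alike within each treatment, and the treatments did not overlap. NFKB1 rose by 1.45 and 1.53 (1.49 ± 0.06, SD, n = 2 calves), 2.82-fold (adjusted p = 4.36e-05, limma).

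RELA encodes the subunit that carries the transactivation domain of the classical dimer. Its log2 ratio was -0.49 and -0.48 in PBS of calves 301 and 303, and 0.34 and 0.35 in APP. The 2 calves gave almost the same value in each treatment. RELA rose by 0.83 in each calf (0.83 ± 0.0042, SD, n = 2 calves), 1.78-fold (adjusted p = 0.000403, limma), but its change was -0.05 under the scaling to the hybridization controls (adjusted p = 0.768, and 0.000199 to 0.768 over 14 alternatives), and 0.11 with cre added (adjusted p = 0.461).

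**Figure D1:**
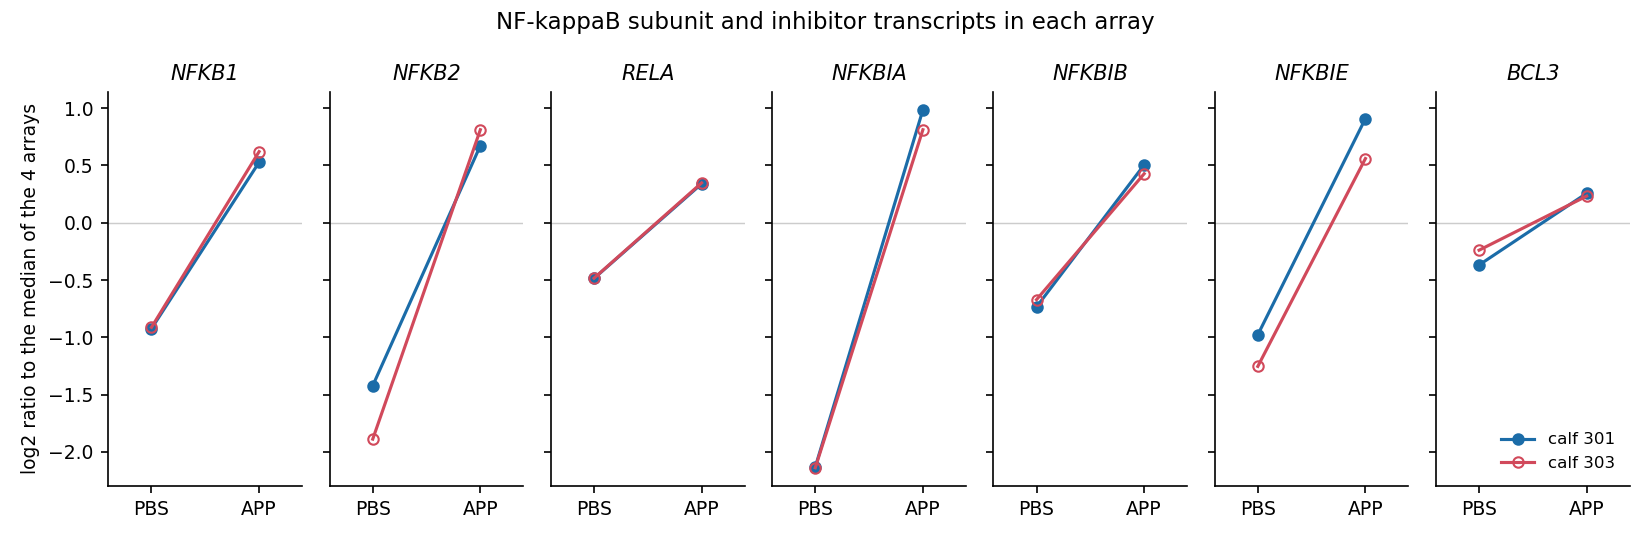
Each panel plots the log2 ratio of a gene to its median over the 4 arrays (y axis) in PBS and APP (x axis), with a line joining the arrays of calf 301 (filled) and of calf 303 (open). All 7 genes lie higher in APP in both calves, with the steepest lines for NFKBIA (3.12 and 2.95) and the shallowest for BCL3 (0.63 and 0.47).

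Among the inhibitors, NFKBIA stood first. IkappaB alpha is the inhibitor that is degraded within minutes of stimulation and then made anew from NF-kappaB-driven transcription. Its log2 ratio was -2.13 in PBS of calf 301 and -2.14 in PBS of calf 303, and 0.99 and 0.81 in the APP arrays. The PBS arrays of the calves were almost equal, and the APP array of calf 301 was the highest. NFKBIA rose by 3.12 and 2.95 (3.03 ± 0.12, SD, n = 2 calves; adjusted p = 6.92e-06, limma), and it ranked 23rd of the 9155 genes by mean change.

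NFKBIE encodes IkappaB epsilon, an inhibitor that binds mainly RelA and c-Rel dimers. Its log2 ratio, averaged over 4 probe sets, was -0.98 in PBS and 0.91 in APP of calf 301, and -1.25 in PBS and 0.56 in APP of calf 303. Calf 303 was lower than calf 301 in each treatment, by 0.31 on average, which did not pass adjustment (unadjusted p = 0.0141, adjusted p = 0.17, limma). The change itself was alike, 1.89 and 1.81 (1.85 ± 0.05, SD, n = 2 calves), a rise of 3.61-fold (adjusted p = 2.09e-05, limma).

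NFKBIB encodes IkappaB beta, whose degradation is slower and which is not restored by the same rapid feedback. Its log2 ratio, the mean of 2 probe sets, was -0.73 and -0.67 in PBS of calves 301 and 303, and 0.51 and 0.43 in APP. NFKBIB rose by 1.24 and 1.10 (1.17 ± 0.10, SD, n = 2 calves), 2.25-fold (adjusted p = 0.00011, limma), and by 0.29 with an adjusted p of 0.0607 when scaled to the hybridization controls.

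BCL3 encodes a nuclear IkappaB-like protein that binds homodimers of the NFKB1 and NFKB2 products and can activate or repress. Its log2 ratio was -0.37 in PBS and 0.26 in APP of calf 301, and -0.24 and 0.23 in calf 303. BCL3 rose by 0.63 and 0.47 (0.55 ± 0.11, SD, n = 2 calves; adjusted p = 0.00336, limma). In fits without the block that left out 1 array, its change was 0.48 and did not pass without the PBS array of calf 301 (adjusted p = 0.0779), and it passed without each of the other arrays (adjusted p = 0.0308 to 0.0449). Scaled to the hybridization controls BCL3 stood at -0.33 (adjusted p = 0.0367), and with cre added at -0.17 (adjusted p = 0.272). The range of its adjusted p over 14 alternatives was 0.00166 to 0.697.

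The calves were also compared apart from the treatment. In limma's test of calf 303 against calf 301, 0 of the 7 passed, beside 1.7% of all genes (156), and 1 of 7, NFKBIE, lay under an unadjusted p of 0.05, beside 17.1% of all genes. With so few members these counts lie near the share over all genes. After NFKBIE, the largest difference was that of NFKB2, -0.16 ± 0.15 (limma's standard error). The change was larger in calf 301 for 4 genes and larger in calf 303 for the 3 subunits. Calf 303 minus calf 301, it differed by 0.60 for NFKB2, 0.08 for NFKB1 and 0.006 for RELA. For the 4 other genes it differed by -0.07 to -0.17. No share over all genes was taken for this count, which is a description. Whether the treatment acted differently in the calves could not be tested, since each calf has 1 array per treatment. The SD of the change over the calves had a median of 0.10 among the 7 genes and 0.10 among all genes.

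The 12 probe sets show how far a gene's value depends on the probe set. Every one passed the threshold upward in the fit over probe sets, where 16.3% of all probe sets passed upward and 23.6% downward. The 4 of NFKBIE changed by 1.66, 1.68, 2.02 and 2.04, and the annotation lists the same source sequence for the ones at 1.68 and 2.02. The 2 of NFKBIB differed by more, with changes of 0.75 and 1.59, and each was alike in both calves (0.79 and 0.70 for the first, 1.69 and 1.49 for the second). The 2 of BCL3 agreed in calf 301 (0.62 and 0.63) and parted in calf 303 (0.69 and 0.26). A single probe set stands for each of NFKB1, NFKB2, RELA and NFKBIA.

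**Figure D2:**
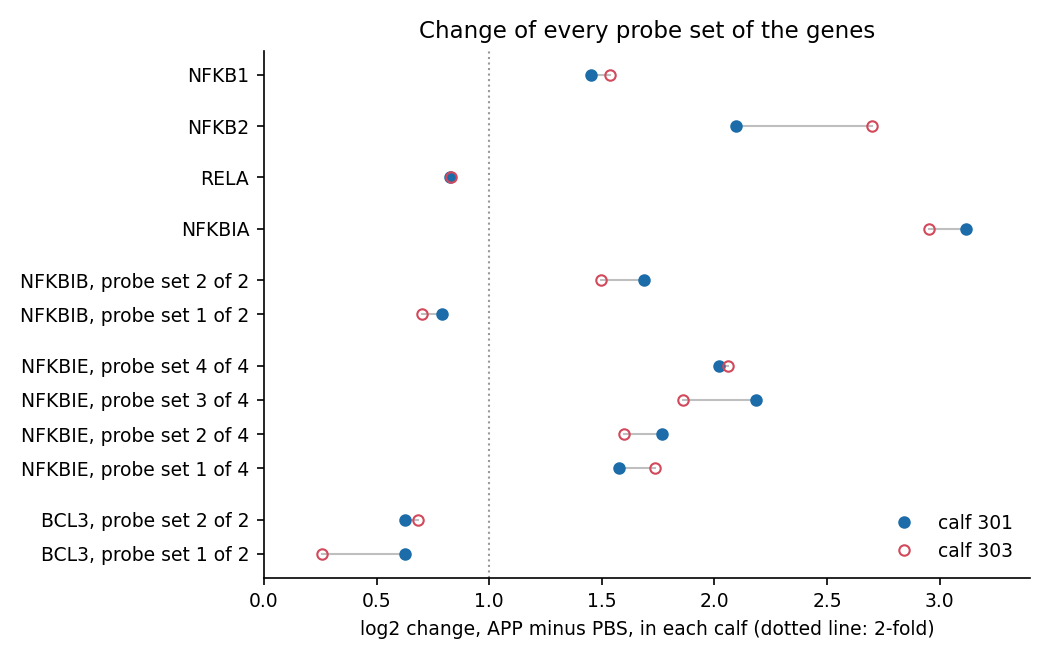
The x axis is the log2 change, APP minus PBS, of each of the 12 probe sets, filled for calf 301 and open for calf 303, with probe sets of a gene numbered by the size of their change. The dotted line is 2-fold, and 8 of the 12 lie beyond it in both calves, with the others those of RELA and BCL3 and the lower of NFKBIB. The share of all probe sets beyond it was not computed. Among all genes, 3.5% rose at least 2-fold in both calves.

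A difference between genes within an array does not depend on a scaling by 1 factor per array. Quantile normalization does alter it, with changes of 2.88, 2.37 and 1.97 for NFKBIA, NFKB2 and NFKBIE. As deposited, from largest to smallest change the order was NFKBIA, NFKB2, NFKBIE, NFKB1, NFKBIB, RELA and BCL3, and it was the same in both calves. Between neighbours, NFKBIA exceeded NFKB2 by 1.02 in calf 301 and by 0.25 in calf 303 (0.64 ± 0.55, SD, n = 2 calves), and NFKB2 exceeded NFKBIE by 0.21 and 0.89 (0.55 ± 0.48). In both pairs the spread between the calves was nearly as large as the difference. NFKBIE exceeded NFKB1 by 0.36 ± 0.11, NFKB1 exceeded NFKBIB by 0.32 ± 0.16, NFKBIB exceeded RELA by 0.34 ± 0.10 and RELA exceeded BCL3 by 0.28 ± 0.11. The place of NFKBIB depends on its probe sets, since the one at 1.59 would stand above NFKB1 and the one at 0.75 below RELA. These gaps are a description with no test of their own.

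Set against each other by role, the classical pair was uneven: NFKB1 changed by more than RELA in each calf, by 0.63 and 0.70 (0.66 ± 0.05, SD, n = 2 calves). The inhibitor NFKBIA exceeded RELA, its main partner, by 2.29 and 2.12 (2.21 ± 0.12). NFKB2 exceeded NFKB1 by 0.64 in calf 301 and 1.17 in calf 303. Among the inhibitors, NFKBIA exceeded NFKBIB by 1.88 and 1.85, and NFKBIE by 1.23 and 1.14.

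The genes can also be placed among all genes by their change. NFKBIA lay at the 99.8th percentile of the 9155 mean changes, NFKB2 at the 99.4th, NFKBIE at the 98.8th, NFKB1 at the 98th and NFKBIB at the 97th. RELA at the 94.3rd and BCL3 at the 89.5th lay lower. A scaling by 1 factor per array leaves these places as they are. Scaled to the hybridization controls, 4 of the 7 passed the threshold upward and 1, BCL3, downward, against 2.95% of all genes upward and 90.1% downward. In the fit with bioB, bioC and bioD every gene has the same standard error of 0.154, because the scaling adds a residual shared by all genes. The moderation then pooled all genes to 1 variance. Its adjusted p values therefore do not reflect a gene's own spread over the 2 calves. The fit with cre added has the same limit, with a standard error of 0.147 for each of the 7. With cre added, 5 of 7 passed upward and none downward, against 4.14% and 84.9% of all genes. Scaled to all 56 control probe sets that are not of bovine genes, which moved the median of all genes to -0.49, 6 of 7 passed upward, against 6.37% of all genes upward and 71.3% downward, and BCL3 stood at 0.05. Without the calf as a block, 7 of 7 passed upward, against 15.3% of all genes upward and 23.6% downward.

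**Figure D3:**
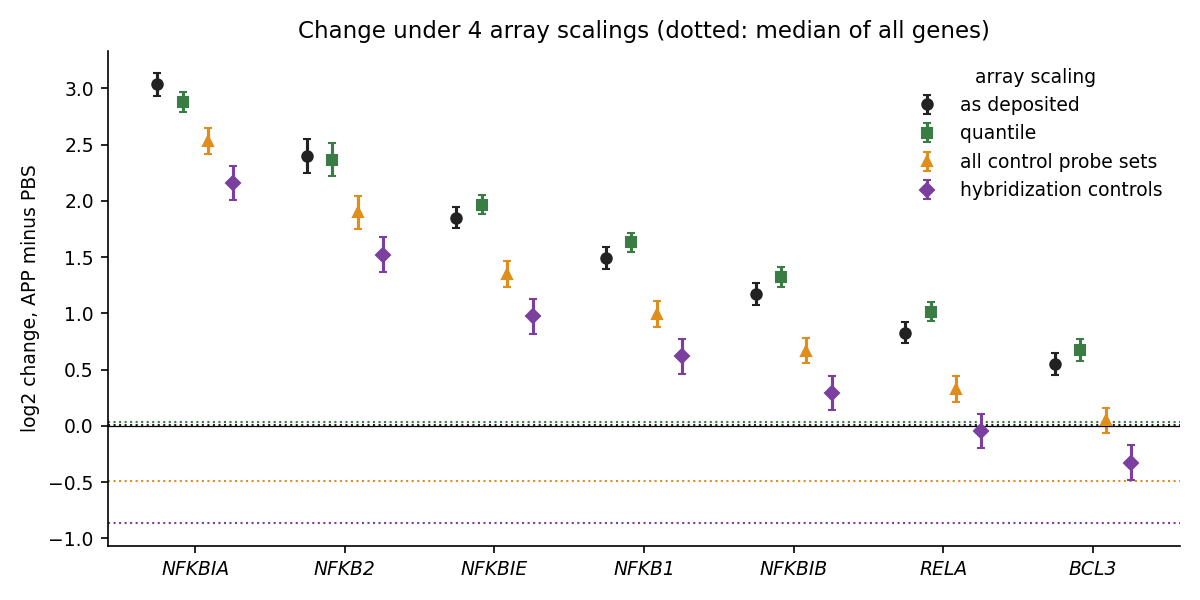
The y axis is the log2 change, APP minus PBS, of each gene with limma's standard error, and the symbols are 4 ways of scaling the arrays, with a dotted line at the median change of all genes in each. From the values as deposited to those scaled on bioB, bioC and bioD, NFKBIA goes from 3.03 to 2.16 and BCL3 from 0.55 to -0.33, while the median of all genes goes from 0.01 to -0.86.

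Other genes of the pathway were taken from 5 lists by role, which hold 144 symbols, 116 of them measured. Their counts stand beside the shares of all genes, 23% upward and 29.7% downward as deposited, and 2.95% and 90.1% when scaled to the hybridization controls. The list of other IkappaB family and related genes also holds NKIRAS1 and NKIRAS2, which do not encode IkappaB-like proteins. Its genes were split. Among 5 of them, 2 rose and the other 3 did not pass, with a median of 0.08. NFKBID, which encodes a nuclear IkappaB protein, had a larger change than any of the 7 genes. Its log2 ratio was -2.78 and -2.33 in PBS of calves 301 and 303, and 0.82 and 1.15 in APP, a rise of 11.6-fold (3.54 ± 0.08, SD, n = 2 calves; adjusted p = 4.76e-06, limma). NFKBIZ, another nuclear IkappaB gene, rose by 0.89 (0.53 and 1.25 for its 2 probe sets; 0.01 when scaled to the hybridization controls). NFKBIL1 (-0.01), NKIRAS1 (-0.05) and NKIRAS2 (0.08, with -0.80 under that scaling) did not pass. NFKBID stood at 2.66 under that scaling.

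The kinases and adaptors upstream of the subunits had called shares near those of all genes. The list holds 27 measured genes of the IkappaB kinase complex and of proteins upstream of it, whether they activate or restrain. Of these, 7 rose (25.9%, against 23% of all genes), 10 fell (37%, against 29.7%) and 10 did not pass. Their median was -0.10. Under the hybridization controls 3 passed upward and 22 downward. The adaptor genes TRAF1 (2.89 in calf 301 and 2.87 in calf 303), TRAF5 (1.99 and 1.69) and TRAF3 (1.29 in the mean, with 0.60 and 1.99 for its probe sets) rose. UBE2N, which makes the ubiquitin chains that activate the kinases, rose by 1.02.

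Of the genes of that list that fell, IRAK4 and PRKCQ changed most. IRAK4, a kinase downstream of Toll-like and interleukin-1 receptors, fell by 1.52 (-1.52 ± 0.02, SD, n = 2 calves). PRKCQ, which encodes protein kinase C theta and links the T cell receptor to NF-kappaB, fell by 1.37 and 1.27. In the kinase complex itself, the catalytic subunit gene IKBKB rose by 0.66 (adjusted p = 0.00138, limma; -0.22 under the hybridization controls), the regulatory subunit gene IKBKG fell by 0.46 (adjusted p = 0.00577), and the catalytic subunit gene CHUK changed by -0.14 (adjusted p = 0.248). MAP3K14, the kinase that starts processing of the NFKB2 product, changed by 0.26 (adjusted p = 0.0569), with -0.62 under the hybridization controls.

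Among 19 genes listed as other negative regulators, 8 passed upward (42.1%, against 23% of all genes) and 9 downward (47.4%, against 29.7%), with a median of -0.12. The list is not of inhibitors alone. FBXW11, which rose by 0.33 (-0.54 under the hybridization controls), encodes a ligase subunit that leads to IkappaB degradation. ZC3H12A, an RNase that degrades cytokine mRNAs, rose 3.14-fold (1.64 and 1.66 in the calves). N4BP1 (0.79) and the deubiquitinase gene OTULIN (0.69) rose as well. USP21, another deubiquitinase gene, fell by 1.01 (-1.52 to -0.43 over its 3 probe sets), TAX1BP1, an adaptor of the TNFAIP3 protein, by 0.88 and the phosphatase gene PPM1B by 0.79. Under the hybridization controls ZC3H12A alone of the 8 risers kept a change above 0. CYLD, the deubiquitinase that opposes the kinase complex, rose by 0.29 (adjusted p = 0.0424, limma), with -0.59 under that scaling.

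Of 15 measured cofactors and nuclear partners, 2 rose (13.3%, against 23% of all genes) and 7 fell (46.7%, against 29.7%), with a median of -0.24. The coactivator gene NCOA1 fell by 1.37 (-1.61 to -1.04 over its 4 probe sets) and the deacetylase gene HDAC1 by 1.11. TLE1, a corepressor gene, fell by 1.03, but its 3 probe sets ran from -2.15 to 0.31. The importin gene KPNA4 (0.79) and AKIRIN2 (0.35) rose, and both stood below 0 under the hybridization controls. The acetyltransferase gene CREBBP changed by -0.24 and did not pass (adjusted p = 0.096, limma).

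Genes described as NF-kappaB targets rose in 37 of 55 cases (67.3%, against 23% of all genes) and fell in 3 (5.45%, against 29.7%), with a median of 1.07, against 0.01. Under the hybridization controls the median was 0.19, against -0.86 over all genes. There 25 of the 55 passed upward and 22 downward, against 2.95% and 90.1% of all genes. Of the 37 that rose as deposited, 8 were below 0 under that scaling. Of these 55, 5 also stand in a list above (BIRC3, NFKBIZ, TNIP1, TRAF1 and ZC3H12A). The largest changes were those of CSF2 (5.78 in calf 301 and 7.04 in calf 303), PLAU (5.27 and 4.81), IL2 (3.16 and 5.17) and CCL4 (2.98 and 3.88), the genes of GM-CSF, urokinase, interleukin-2 and a chemokine. Many of these targets also answer to other transcription factors of activated T cells. Those that fell were SOD2 (-0.46), LTB (-0.38) and PSMB9 (-0.38). BIRC3, an apoptosis inhibitor gene often used as a target readout, changed by 0.13 (adjusted p = 0.284, limma; -0.08 and 0.34 for its probe sets; -0.75 under the hybridization controls), and IL6 by 0.02 (adjusted p = 0.872; -0.86 there).

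**Figure D4:**
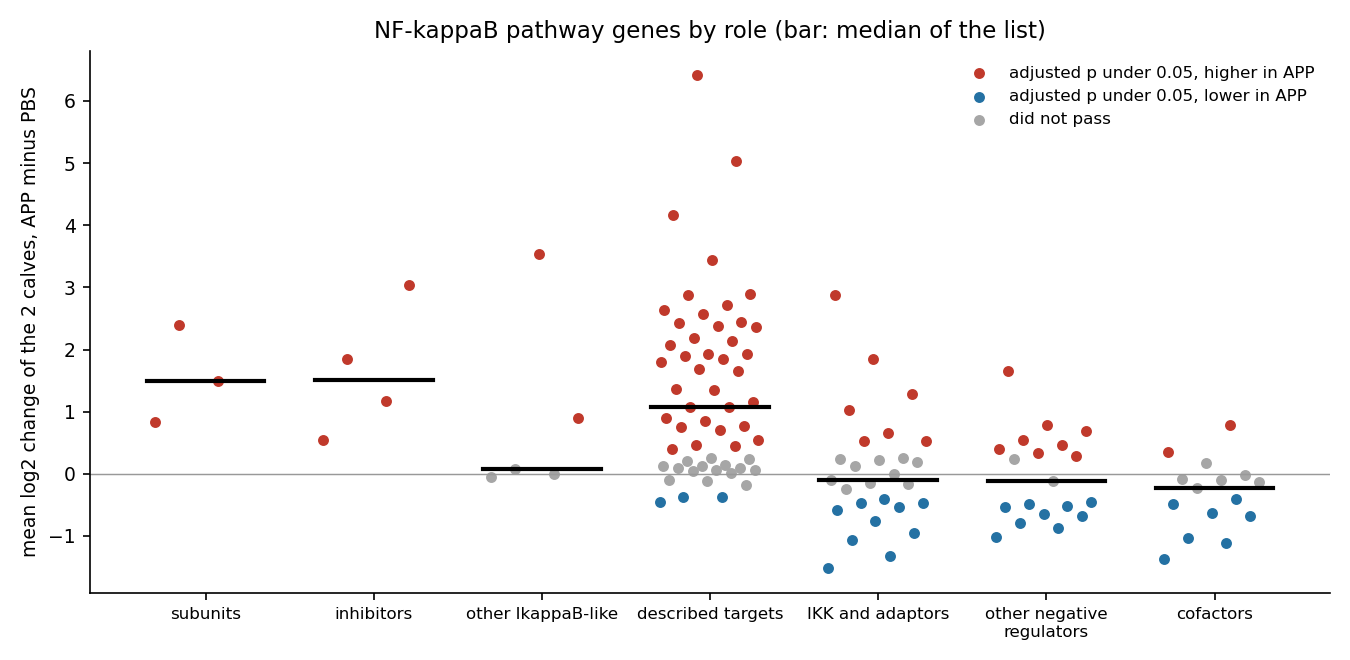
Each point is the mean log2 change of a gene over the 2 calves (y axis), grouped by role on the x axis, red or blue where it passed an adjusted p of 0.05 and grey where it did not, with a bar at the median of the list. As deposited, the subunits and inhibitors all lie above 0 (3 of 3 and 4 of 4), and the targets mostly do (37 of 55 passed), while kinases, other negative regulators and cofactors lie on both sides. Scaled to the hybridization controls, RELA and BCL3 fall below 0.

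By nearness of their values over the 4 arrays (root-mean-square difference of centred log2 values), the genes most like NFKBIA were TNFRSF18, AGO2 and TXNDC5, at 0.07, 0.11 and 0.13. Those most like NFKB2 were ZBTB21, VEGFA and SLC7A1, at 0.01, 0.06 and 0.15. ZBTB21 rose by 2.09 in calf 301 and 2.67 in calf 303, with the larger change in calf 303 as for NFKB2. NFKB1 lay nearest to TBRG4, ALDH18A1 and SYNCRIP, RELA to FKBP1A, HAS2 and MRPS6, and NFKBIE to SLC38A5, DDX21 and DDIT4. NFKBIB lay nearest to POLD1, FLT3LG and CHCHD2, and BCL3 to CRYBA2, AKT2 and CTDNEP1. With 4 arrays, and a distance that small changes keep low, such nearness is a description.

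The sorted cells could not be checked by level, since the ratios hold none. In these bulk samples a change in the share of a cell type and a change per cell cannot be told apart. Beside the 23% of all genes that rose and the 29.7% that fell, 5 of 7 measured genes listed as gamma delta T cell markers fell. None of them rose, and their median was -0.47. CD3D, CD3E, CD3G, CD247 and CD2 of that list are also carried by other T cells. The genes WC1.3 and CD163L1 changed by -0.86 and -1.08. Of 12 measured monocyte and dendritic cell markers 3 rose (CD68 by 2.31, FCGR1A by 0.46 and CD14 by 0.46, the last and FCGR1A at -0.42 when scaled to the hybridization controls) and 9 did not pass. Of 4 measured B cell markers 3 fell, and of 4 platelet and red cell markers none passed. Of 3 NK cell markers KLRD1 rose by 0.30 (-0.58 under that scaling). CD8A rose by 1.08 and CD8B fell by 0.64 in the mean, with CD4 at 0.20 (-0.68 under that scaling). Both CD8 genes differed more between the calves than between the treatments. CD8B was at -1.06 in PBS and -1.70 in APP of calf 301, and at 1.24 and 0.59 in calf 303, a difference of 2.30 (adjusted p = 0.000499, limma). CD8A was at -1.69 and -0.29 in calf 301, and at 0.22 and 0.98 in calf 303, a difference of 1.59 (adjusted p = 0.00673, limma). The part of these markers in the changes of the NF-kappaB genes was not tested.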

How the data were processed

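RNA of sorted bovine gamma delta T cells was hybridised to 4 Affymetrix arrays, 2 treated with APP and 2 with PBS. The authors deposited linear ratios, made from RMA signals per the submitters' processing notes (version and options not given there). That each value is the signal divided by the probe set's median over the arrays was found from the values: after 1 factor per array the row medians lay between 0.99948 and 1.0005 in all 24128 rows. Levels are lost, depth does not apply to arrays, and their number limits the precision. Ratios were log2 transformed without further scaling. Leaving out 112 control probe sets gave 24016, of which 13292 had 1 gene symbol, 86 several and 10638 none. Symbols came from a platform annotation and were updated through RefSeq's ARS-UCD2.0 gene table, which matched 13263. Probe sets of a gene were averaged, giving 9155 genes.

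APP was compared with PBS in limma 3.58.1 under R 4.3.3 (eBayes on lmFit, two-sided). The calf was a block, since the titles name the same 2 calves in both treatments. The calves' difference correlated between PBS and APP (r = 0.514 over probe sets). The gene fit to the values as deposited has 1 residual degree of freedom and 5.86 prior degrees of freedom. The fits scaled to the hybridization controls, with and without cre, instead pooled all genes to 1 variance. Benjamini-Hochberg adjustment ran over all genes at 0.05. The script was tested on simulated data. Alternatives were the block, each array left out, 5 scalings (1 added after seeing the data), 2 other summaries of a gene's probe sets, robust moderation, a range filter and a 2-fold rule. Every measured gene of the rule is named. Each list names the 4 genes past the threshold with the largest change in the same direction in both calves, and up to 2 against its majority. For each gene of the rule, the 3 genes with the smallest root-mean-square difference over the arrays are named. Any other list gene that is named was chosen after its values were seen. The genes of the rule and the lists were chosen with earlier results of these data known.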

Additional observations from a re-analysis of the deposited data

Results flagged for a closer look

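The bacterial and phage control probe sets of the array, which were used here only to scale the arrays, were higher in APP than in PBS in the mean of each control in both calves. Among the hybridization controls the mean log2 change was 0.9871 for bioB (6 probe sets), 0.8791 for bioC (4), 0.5374 for bioD (2) and 0.2381 for cre (4). Any probe set spelled BioDn was not counted with bioD. Among the other bacterial controls it was 0.3328 for dap, 0.5389 for lys, 0.4619 for phe and 0.5253 for thr, with 6 probe sets each. Groups of 2 arrays are too small for a test of single outlying arrays.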

How the results depend on the processing

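With no replicate block, 1399 genes rose and 2161 fell, and 7 of the 7 NF-kappaB genes rose, so that the block changed none of their calls. Leaving out 1 array gave 745 to 1292 genes higher and 1305 to 2012 lower, and 6 to 7 of the 7 higher, with BCL3 the one lost. Its change ran from 0.48 to 0.61 there. Under the scaling to bioB, bioC and bioD, 270 genes rose and 8246 fell, and 4 of the 7 rose and 1 fell, with RELA at -0.047, NFKBIB at 0.29 and BCL3 at -0.33. With cre added, chosen after seeing the data, 379 genes rose and 7773 fell, and 5 of the 7 rose, with RELA at 0.11 and BCL3 at -0.17. Scaled to all control probe sets, 583 rose and 6529 fell, with BCL3 at 0.049. By the rule of 2-fold in both calves 320 rose and 576 fell, and RELA (0.83) and BCL3 (0.55) did not reach it. The cause was not tested, beyond the shift that each scaling itself makes in the median of all genes. Of the 105 values of the 7 genes under alternatives, 96 kept their direction and their side of the threshold, 6 no longer passed and 3 reversed. Dropping the block, robust moderation, the range filter and the 2-fold rule leave each change as it was, so no direction could turn there. The same holds for the 2 other summaries of probe sets in genes with 1 probe set. Signal over background is unknown.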
